A study of Mus musculus with 8 samples.

Results

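Histone genes were defined as all genes in the count tables whose symbol begins with Hist1h, Hist2h, Hist3h or Hist4h, called clustered histone genes here, or with H1f, H2af or H3f, called variant histone genes. The rule found 82 of the 23337 genes listed, of which 68 were clustered and 14 were variant. Members were tested only where they had been chosen by the measured counts themselves, 10 or more in at least 2 of the 8 samples, and 27 of the 82 passed (17 clustered, 10 variant) beside 14379 of all genes. Just inside this limit lay Hist1h2ae and Hist1h4k, whose second highest counts were 10 and 11, and just outside it lay Hist1h3d, at 8. Of the 27, 19 passed in every group (10 clustered, 9 variant). H1fx, Hist1h1a, Hist1h2ae, Hist1h2be and Hist1h4k passed through the KO-Refed libraries as the only complete group, so a higher value there was built into their selection and supports nothing. The same holds for refed over fasted levels of Hist1h2ac, which passed through the refed libraries alone.

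The libraries were RNA-seq of whole liver from C57BL/6 mice aged 12 weeks, with 2 samples in each of 4 groups. WT-Fasted and WT-Refed were wild-type livers, and KO-Fasted and KO-Refed carried the genotype Hrd1-/-. In the study it was made by Albumin-Cre acting on floxed HRD1 alleles (HRD1Alb mice), a driver that is active in hepatocytes. The study states that it deletes the gene early in liver development. Which other liver cells kept HRD1 is not given in the labels. Fasted mice had gone without food overnight, and refed mice were fasted in the same way and then fed for 4 h. HRD1 is a ubiquitin ligase of the endoplasmic reticulum. Whether the 2 samples of a group came from separate animals is not stated in the labels, so p-values measure the spread between these samples.

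Histones are the proteins around which DNA is wound: H2A, H2B, H3 and H4 form the core of the nucleosome, and linker histone H1 binds where DNA enters and leaves it. Most clustered genes are transcribed in S phase, have no introns, and give mRNAs that end in a stem-loop instead of a poly(A) tail, bound by the stem-loop binding protein SLBP. Variant genes (H1f0, H2afz, H3f3a and others) lie scattered in the genome, are mostly polyadenylated, and are expressed outside S phase, as is usual in the resting liver. Some clustered genes also give polyadenylated mRNAs from a site beyond the stem-loop in cells that do not divide.

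The libraries held 40210576 to 49117080 counts each, so that 3 counts, taken as the floor, corresponded to 0.0611 to 0.0746 counts in every 1000000 of the library. Levels are given as counts per 1000000 (CPM) after scaling by TMM factors of 0.837 to 1.22. The 2 libraries labelled KO-Refed stood apart from each other: 3215 tested genes differed at least 2-fold between them, against 429 to 1155 within the other groups. Syvn1, the gene of HRD1, was at 111 and 99.8 CPM in WT-Fasted and at 32.6 and 31.5 in KO-Fasted, but at 637 and 305 in WT-Refed and at 453 and 132 in KO-Refed. The refed groups thus overlapped (log2 fold change -0.69 ± 0.55 (SE), adjusted p = 0.389 by edgeR), KO-Refed 1 lay above WT-Refed 2, and the counts are of the whole gene, exons outside the deleted part included. Syvn1 thus did not check the refed labels, and every refed direction below is one between libraries as labelled. Top2a was at 2.35 to 3.36 CPM in the KO and 0.573 to 1.10 in the WT libraries, and Rpl13a at 363 to 1038 and 182 to 208. Both genes were picked among those called between groups labelled in this way, so their split does not check the labels. Hepatocyte markers summed to 66475 to 107110 CPM in the KO libraries and to 113650 to 156490 in WT. Macrophage and Kupffer cell markers (5 of 5 detected) summed to 175 to 312 CPM in the KO libraries and to 74.5 to 86.5 in WT. Of the other marker lists, T cell (4 of 4 detected), B cell (3 of 3) and neutrophil markers (2 of 2) were highest in KO-Refed 2, at 4.58, 4.01 and 8.34 CPM, against at most 2.50, 2.39 and 2.66 in any other library. Endothelial markers ranged from 74.2 to 99.3 CPM and cholangiocyte markers from 20.2 to 53.9. Stellate and fibroblast markers were at 158 and 195 CPM in WT-Refed, 170 and 337 in WT-Fasted and 318 to 436 in the KO libraries. Erythroid markers were at 74.5 to 105 CPM in WT and 20 to 54.9 in the KO libraries, and testis germ cell markers reached at most 0.22 CPM. The part of these cell types in the histone values was not tested, and in bulk liver fewer cells of a type and less RNA per cell cannot be told apart.

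The stem-loop is a sequence feature typical of clustered genes. A search of the GENCODE M21 transcripts (GRCm38) for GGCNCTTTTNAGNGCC found it in 42 of 68 clustered genes and in 1 of 14 variant genes, H2afx. It was found in 45 of 21875 protein-coding genes in all (0.206%), of which 2 were no members. Some clustered transcripts are annotated as very short, such as Hist1h4k at 312 bases and Hist1h2bl at 381, and may end before a stem-loop. A gene without a hit is therefore not shown to lack one. The loops of the genes whose values are described most are shown here 5′ to 3′ with 5 bases on either side, the stem-loop in capitals:
Hist1h1c: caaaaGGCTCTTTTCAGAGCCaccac
Hist2h3c1: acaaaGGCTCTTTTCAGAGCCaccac
Hist2h3c2: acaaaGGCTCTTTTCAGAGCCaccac
Hist1h2ac: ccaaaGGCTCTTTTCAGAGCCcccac
Hist1h4h: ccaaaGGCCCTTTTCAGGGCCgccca
Hist1h4i: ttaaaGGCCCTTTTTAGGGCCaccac
H2afx: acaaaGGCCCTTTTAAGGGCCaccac
These lie on GRCm38 at chr13:23739512-23739527 (+) for Hist1h1c, chr3:96247327-96247342 (+) for Hist2h3c1, chr3:96238485-96238500 (-) for Hist2h3c2, chr13:23683477-23683492 (-) for Hist1h2ac, chr13:23531458-23531473 (+) for Hist1h4h, chr13:22040966-22040981 (-) for Hist1h4i and chr9:44335240-44335255 (+) for H2afx, each within the 1 exon of the annotated transcript. The first form of the loop was found in 26 members and the H4 form of Hist1h4h in 7.

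Annotated transcripts of tested clustered genes ran further past the stem-loop than those of untested ones. Of the 13 tested clustered genes with a loop, 11 had more than 100 annotated bases behind it (median 840), against 10 of the 29 untested ones (median 42). Hist1h1c had 840 bases behind its loop and an AATAAA within 50 bases of the transcript end, a polyadenylation signal that 65% of protein-coding genes held there. The Hist1h4h transcript ended 46 bases after the loop. Sequence shared with other genes was also tabulated: in 4 of 17 tested and 28 of 51 untested clustered genes, at least 50% of the 50-base windows of the transcript also occurred in another gene. These are descriptions of the annotation, and their part in the counts was not tested.

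Of the 4 clustered H1 genes tested, 3 had in their promoters the motif known as the H1 box, spelled AAACACA, upstream of a CCAAT box. Hist1h1a, which was tested through its KO-Refed counts alone, had a CCAAT box without it. All 4 were called higher with refeeding in KO livers, so no uncalled gene of this kind was there to compare. The part of the motif in the calls was not tested. A TATA box was searched as the letters TATAAA. The last 130 bases before the RefSeq transcription start of Hist1h1c, Hist1h1d and Hist1h1e (GRCm38.p6, 1770 bases inside the GENCODE gene for Hist1h1d) are shown 5′ to 3′ with these motifs in capitals:
Hist1h1c: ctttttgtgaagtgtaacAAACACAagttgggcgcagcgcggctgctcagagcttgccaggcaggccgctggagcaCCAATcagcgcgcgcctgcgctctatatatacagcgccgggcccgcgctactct
Hist1h1d: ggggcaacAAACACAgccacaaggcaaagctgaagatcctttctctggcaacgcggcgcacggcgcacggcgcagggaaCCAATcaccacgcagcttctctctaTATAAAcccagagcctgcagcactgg
Hist1h1e: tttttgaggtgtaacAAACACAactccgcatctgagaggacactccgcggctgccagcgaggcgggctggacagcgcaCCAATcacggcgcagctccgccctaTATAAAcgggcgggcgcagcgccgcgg
They lie at chr13:23738677-23738806 (+), chr13:23554902-23555031 (+) and chr13:23622559-23622688 (-). The H1 box began 112, 122 and 115 bases before the start and the CCAAT box 54, 51 and 52 bases before it. Over the 250 bases before the start and on both strands, the H1 box was in 5 of 10 H1 promoters matched, in 14.5% of clustered promoters and in 6.25% of all 32851 RefSeq promoters. The CCAAT box was in 82.3% of clustered, 58.3% of variant and 33.8% of all promoters, the TATA box in 46.8%, 8.33% and 12.4%, and the octamer ATTTGCAT in 21%, 8.33% and 1.6%. A promoter was matched for 74 of the 82 members. The promoters of H1f0 and of Hist2h3c1 and Hist2h3c2 held none of these 4 words, which says only that the letters are not in that window.

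In summed level the clustered genes ranged from 229 to 570 CPM and were carried by few genes. Their sum was 344 ± 24.9 CPM in WT-Fasted (SD, n = 2 here and below), 235 ± 0.92 in KO-Fasted, 237 ± 11.3 in WT-Refed and 518 ± 73.3 in the libraries labelled KO-Refed. The KO group was thus lower than WT when fasted (0.681 times) and higher when refed (2.18 times), and refeeding went with a lower sum in WT (0.689 times) and a higher one in KO (2.21 times). The libraries did not overlap in any of these 4 comparisons, each with exact permutation p = 0.333, two-sided, the smallest that 2 against 2 samples allow. Hist1h1c alone made up 64.7% and 67.4% of the sum in WT-Fasted, 65.1% and 65% in KO-Fasted, 37.7% and 32.3% in WT-Refed and 69% and 51% in KO-Refed. Without it the clustered sum was 117 ± 15.1, 82 ± 0.543, 154 ± 1.64 and 212 ± 95.3 CPM in the same order, so the WT libraries were then higher refed than fasted. The variant sum was 478 ± 26.9, 424 ± 1.53, 430 ± 2.48 and 509 ± 142 CPM, and its refed groups overlapped (exact permutation p = 1).

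**Figure D1:**
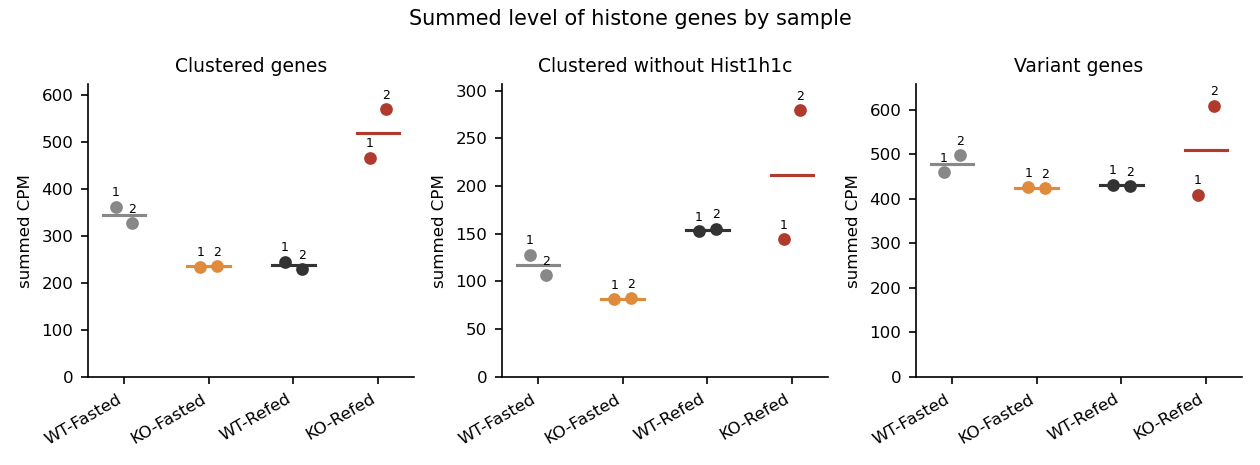
Summed CPM of all 68 clustered histone genes, of the same genes without Hist1h1c, and of all 14 variant histone genes (y axis) in each of the 8 libraries (points, numbered by replicate) by group (x axis), with lines at the group means. The clustered sum was 518 CPM on average in KO-Refed against 235 to 344 in the other groups, whereas the variant means lay between 424 and 509.

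In KO against WT livers under fasting, the edgeR quasi-likelihood test called no tested histone gene, beside 0.904% of all genes higher and 0.431% lower. Without adjustment 5 members were lower at p under 0.05 and none higher (Hist1h1c, Hist2h3c1, Hist2h3c2, H2afx and Hist1h1a), beside 1069 of the 14379 genes lower and 1570 higher. DESeq2 called 2 of them lower, Hist1h1c and Hist2h3c1, beside 462 of all genes, and limma called none. In the 10 clustered genes that passed in every group the median log2 fold change was -0.345, with 2 above 0, beside -0.02 over all genes. In the 9 variant genes it was -0.11.

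In refed KO against refed WT livers, 4 histone genes were higher (Hist1h1c, Hist1h1d, Hist1h4i and Hist1h1a, all clustered) and none lower, beside 7.06% of all genes higher and 4.84% lower. Of the 4, Hist1h1a had been selected by its KO-Refed counts. The count of 0 lower was the same by DESeq2, by limma and without adjustment. The 10 clustered genes passing in every group had a median log2 fold change of 1.22 and 3 calls, the 9 variant genes 0.435 and none, and all genes 0.05. Both KO-Refed libraries lay above both WT-Refed libraries for 17 of the 27 tested members, beside 30.7% of all genes, but 5 of the 17 had passed the filter through KO-Refed alone, so nothing is read from that count. Of the genes passing in every group it held for 7 of 10 clustered and 4 of 9 variant genes. Leaving out a library left a lone library in its group, which was assumed to vary like the others. The number of calls fell, among members and over all genes, without any fasted or WT-Refed library. Over all genes it rose without either KO-Refed library. These numbers moved with the whole table, so they are not read as results about histone genes.

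With refeeding in WT livers, Hist2h3c1 and Hist2h3c2 were higher and Hist1h1c was lower, and no variant gene was called, beside 1.2% of all genes higher and 1.39% lower. With refeeding in KO livers, 10 members were higher (9 clustered genes and H2afx) beside 5.42% of all genes. Of these, Hist1h1a, Hist1h2be and Hist1h2ac had been selected by their refed counts, and 7 had passed in every group. None was lower by edgeR or limma, beside 5.01% of all genes, and 1 was by DESeq2 (H1f0), the same one as without adjustment. Both KO-Refed libraries exceeded both KO-Fasted libraries for 19 of 27 members, beside 29.1% of all genes, a count that includes the members selected by refed counts and from which nothing is read. Of the genes passing in every group it held for 9 of 10 clustered and 4 of 9 variant genes. The 10 clustered genes passing in every group had a median log2 fold change of 1.80 and 6 calls, the 9 variant genes 0.386 and 1 call, and all genes 0.02. Leaving out single libraries moved the number of calls in either genotype, among members and over all genes alike. In WT it fell without any WT-Fasted, KO-Fasted or WT-Refed library, and in KO it fell most without a KO-Fasted one. In both it rose without a KO-Refed library. Such fits leave a lone library in a group, so these numbers are not read as results about histone genes. The comparisons share their control libraries: each group enters 2 of these 4 contrasts.

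Whether the effect of genotype differed with feeding was tested as an interaction. By edgeR it was called for no member and for 0% of all genes, with 1211 genes and 7 members at unadjusted p under 0.05. By limma it was called for none, and by DESeq2 for 57 genes upward and 47 downward, among them Hist1h1c and Hist2h3c2. Without KO-Refed 1 it was called for 11 members beside 2268 genes upward and 2621 downward, and without KO-Refed 2 for 1, Hist1h1c, beside 69 and 36.

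**Figure D2:**
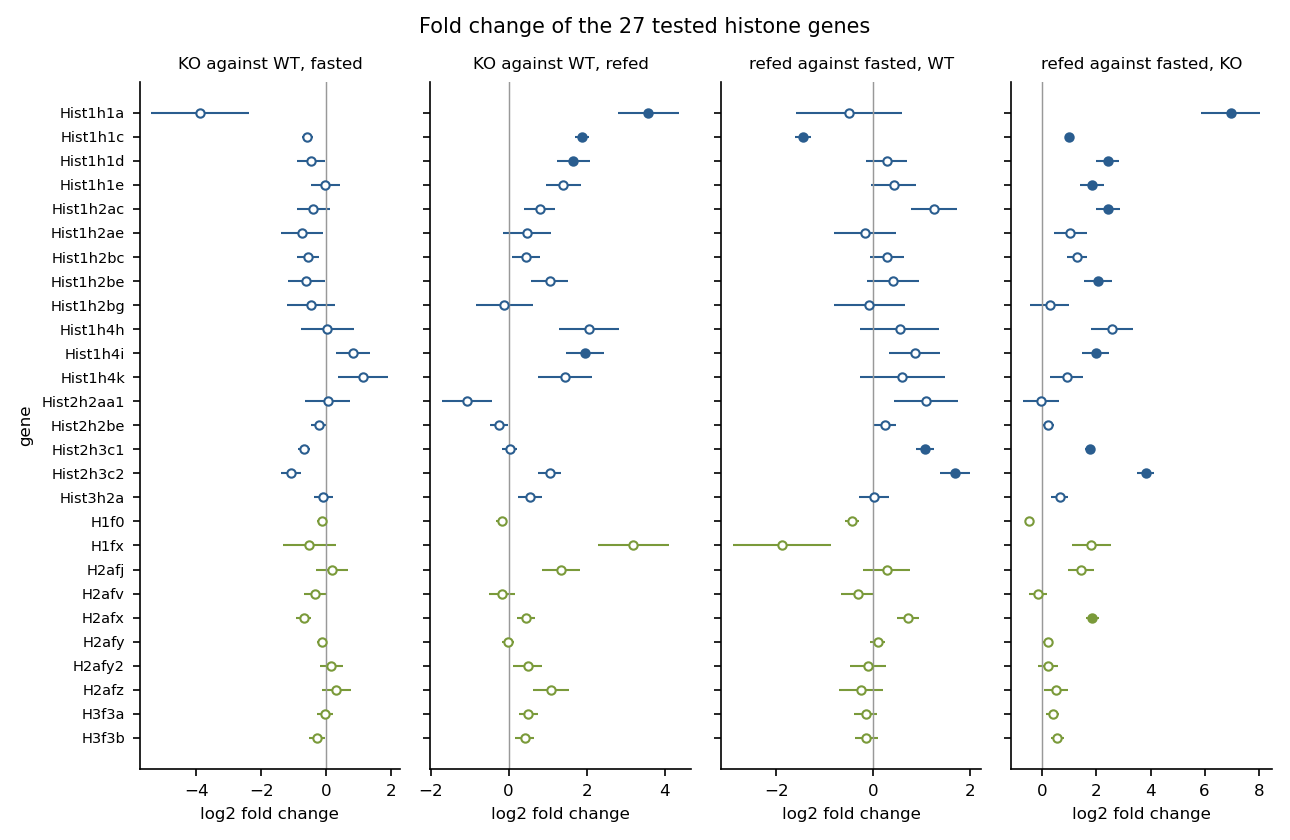
log2 fold change (x axis, with SE bars) of the 27 tested histone genes (y axis) in 4 comparisons, clustered genes in blue and variant genes in green, with filled points for genes called at an adjusted p under 0.05. Filled points number 0 in the fasted comparison, 4 and 3 in the next panels and 10 in the comparison of refed with fasted KO livers, and their scales differ between panels.

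Among the linker histones, Hist1h1c, which encodes the subtype H1.2, was the most abundant clustered gene in all groups but WT-Refed and moved in opposite directions with refeeding in the 2 genotypes. It lies at chr13:23738808-23740367 on the plus strand. Its level was 234 and 220 CPM in WT-Fasted, 152 and 153 in KO-Fasted, 92.3 and 74 in WT-Refed and 321 and 290 in the libraries labelled KO-Refed. No pair of groups overlapped, the order being WT-Refed, KO-Fasted, WT-Fasted and KO-Refed from low to high. It fell with refeeding in WT (log2 fold change -1.45 ± 0.17 (SE), adjusted p = 0.0155 by edgeR) and rose in KO (log2 1.003 ± 0.17, adjusted p = 0.0152). In refed livers it was 3.68-fold higher in KO than in WT (log2 1.88 ± 0.17, adjusted p = 0.00550), and in fasted livers 0.672 times the WT level (log2 -0.57 ± 0.17, adjusted p = 0.132). The fasted fold change was the same without KO-Refed 1 or KO-Refed 2, fits that change no fasted library. The interaction was 2.45 ± 0.24 on the log2 scale (unadjusted p = 1.16e-05, adjusted p = 0.115 by edgeR). The refed difference between genotypes was 1.80 without KO-Refed 1 and 1.95 without KO-Refed 2, and missed the threshold without either WT-Refed library (adjusted p = 0.0581 and 0.0889). The fall in WT missed it without either library of WT-Fasted, KO-Fasted or WT-Refed (adjusted p from 0.0683 to 0.196), and the rise in KO without either KO-Fasted library (0.138 and 0.148).

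H1f0, the replication-independent linker histone H1.0 of resting cells, differed from Hist1h1c in KO-Refed, where H1f0 was lowest and Hist1h1c highest. In the other groups both fell in the order WT-Fasted, KO-Fasted and WT-Refed. H1f0 was at 172 and 177 CPM in WT-Fasted, 154 and 165 in KO-Fasted, 135 and 124 in WT-Refed and 111 and 117 in KO-Refed. Refed levels lay below fasted ones in either genotype without overlap, at log2 -0.43 ± 0.14 in WT (adjusted p = 0.193 by edgeR) and -0.48 ± 0.14 in KO (adjusted p = 0.073), neither past the threshold. The ratio of Hist1h1c to H1f0 counts was 1.36 and 1.24 in WT-Fasted, 0.988 and 0.929 in KO-Fasted, 0.684 and 0.595 in WT-Refed and 2.88 and 2.48 in KO-Refed. Per kilobase of transcript, Hist1h1c was at 146 CPM and H1f0 at 85.05 in WT-Fasted, and in KO-Refed they were at 196.1 and 55.6.

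The other linker histone genes were far lower. Hist1h1d, for subtype H1.3, was at 1.05 and 0.681 CPM in WT-Fasted, 0.762 and 0.49 in KO-Fasted, 1.21 and 0.893 in WT-Refed and 2.47 and 4.21 in KO-Refed, and both KO-Refed libraries lay above all others. It was higher in KO-Refed than in WT-Refed (log2 1.66 ± 0.41, adjusted p = 0.0444) and than in KO-Fasted (2.41 ± 0.42, adjusted p = 0.0182), both by edgeR, and the former missed the threshold without any library other than KO-Refed 1. Hist1h1e, for H1.4, was at 0.438 to 0.822 CPM in the 4 fasted libraries, 1.09 and 0.604 in WT-Refed and 2.64 and 1.84 in KO-Refed. Its rise with refeeding in KO passed the threshold (log2 1.85 ± 0.44, adjusted p = 0.042, lost without any single fasted or WT-Refed library) and its difference between refed genotypes did not (1.40 ± 0.44, adjusted p = 0.077). The annotated span of Hist1h1e overlaps that of Hist1h2be on the same strand (32% of its 50-base windows are shared), so their counts are uncertain. Hist1h1a, for H1.1, and H1fx were tested only because of their counts in KO-Refed, so their values are a description. Hist1h1a had 2, 1, 0, 0, 1 and 1 counts in the other libraries and 14 and 20 in KO-Refed. On the pooled counts per TMM-scaled library total it was 12.8-fold higher in KO-Refed than in WT-Refed (34 against 2 counts, exact 95% interval 3.27 to 110 for counting error only) and at least 11.5-fold higher than in KO-Fasted (34 against 0, with the floor at 3 counts over the group). H1fx, for the variant H1.10, had 18 and 20 counts in KO-Refed and 0 to 8 elsewhere, a ratio of 9.50 to WT-Refed (3.02 to 48.1).

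**Figure D3:**
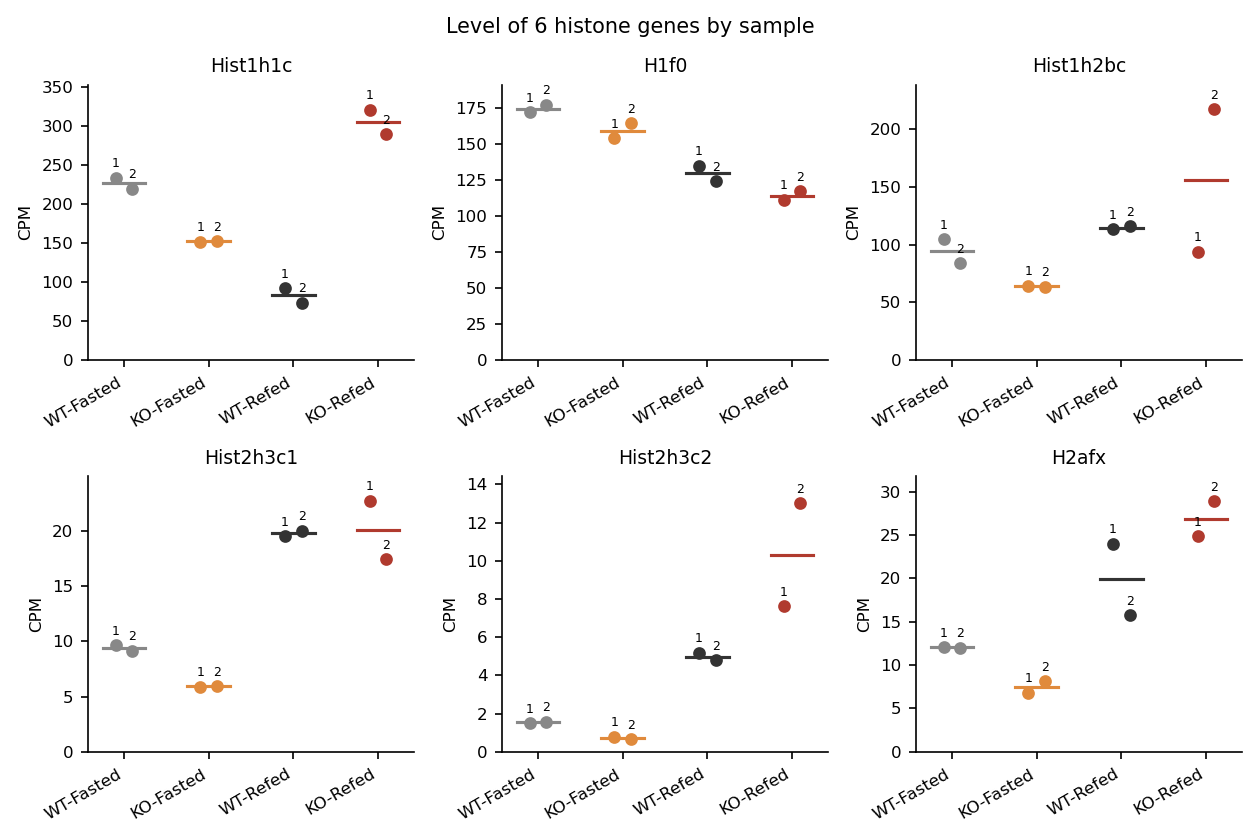
CPM (y axis) of 6 histone genes in each library (points, numbered by replicate) by group (x axis), with lines at the group means. Hist1h1c was lowest in WT-Refed and highest in KO-Refed, H1f0 was lower in refed than in fasted libraries, the H3 genes Hist2h3c1 and Hist2h3c2 were higher in all refed than in all fasted libraries, and KO-Refed 2 stood alone in Hist1h2bc at 217 CPM.

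Among H3 genes, Hist2h3c1 and Hist2h3c2, neighbouring genes for core histone H3 on chromosome 3, rose with refeeding in either genotype. Hist2h3c1 (chr3:96246685-96248509) was at 9.67 and 9.15 CPM in WT-Fasted, 5.9 and 5.94 in KO-Fasted, 19.5 and 20 in WT-Refed and 22.7 and 17.4 in KO-Refed. All refed libraries lay above all fasted ones, and the refed genotypes overlapped. The rise was log2 1.07 ± 0.18 in WT (adjusted p = 0.0364) and 1.76 ± 0.19 in KO (adjusted p = 0.00458), and the difference between refed genotypes was 0.02 ± 0.18 (adjusted p = 0.937). Hist2h3c2 (chr3:96238108-96239127) was at 1.5 and 1.58 CPM in WT-Fasted, 0.782 and 0.672 in KO-Fasted, 5.19 and 4.78 in WT-Refed and 7.61 and 13 in KO-Refed. No groups overlapped. It rose 3.24-fold with refeeding in WT (log2 1.69 ± 0.30, adjusted p = 0.0379) and 14.1-fold in KO (3.82 ± 0.32, adjusted p = 0.00351), the largest called rise among members that passed in every group. Its refed difference between genotypes missed the threshold (1.05 ± 0.29, adjusted p = 0.0556), as did its interaction (2.13 ± 0.43, adjusted p = 0.551). In KO the rise of Hist2h3c2 was 4.16 without KO-Refed 1 and 3.39 without KO-Refed 2. The calls of either gene in WT were lost without either library of WT-Fasted, KO-Fasted or WT-Refed, and those in KO without either KO-Fasted library. All of the 50-base windows of Hist2h3c1 (100%) and 63.5% of those of Hist2h3c2 occur in other genes, including each other, so how reads were divided between them is uncertain. The summed clustered H3 level was 11.1 ± 0.413, 6.77 ± 0.102, 25 ± 0.0606 and 31.1 ± 0.175 CPM in WT-Fasted, KO-Fasted, WT-Refed and KO-Refed. Hist1h3e, the H3 gene next in level, had 1 to 5 counts per library and was not tested.

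The variants H3f3a and H3f3b, which encode the replication-independent histone H3.3, were not called in any contrast. H3f3b was at 143 and 172 CPM in WT-Fasted, 142 and 119 in KO-Fasted, 136 and 150 in WT-Refed and 147 and 235 in KO-Refed, where KO-Refed 2 lay above all others. H3f3a was at 12.5 to 15 CPM in 7 libraries and at 22.6 in KO-Refed 2. Without KO-Refed 1, either gene was called higher in KO-Refed than in WT-Refed (H3f3a 0.81, adjusted p = 0.00135, and H3f3b 0.71, adjusted p = 0.00833, by edgeR), with KO-Refed 2 as the lone library.

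Among H2A genes, the variant H2afx was the only variant gene called by edgeR. DESeq2 also called H2afj in both contrasts with KO-Refed and H1f0 with refeeding in KO, and limma called H1fx in refed KO against WT. H2afx encodes H2A.X, the form that is phosphorylated at DNA breaks, and is the variant whose transcript held a stem-loop. Its level was 12.1 and 12 CPM in WT-Fasted, 6.82 and 8.11 in KO-Fasted, 24 and 15.8 in WT-Refed and 24.9 and 28.9 in KO-Refed, and all refed libraries lay above all fasted ones. It rose with refeeding in KO (log2 1.85 ± 0.24, adjusted p = 0.00865), a call lost without either KO-Fasted library, and it was 1.65-fold higher with refeeding in WT without passing (0.72 ± 0.23, adjusted p = 0.178). H2afj was at 15.9 to 24.6 CPM in 7 libraries and at 86.2 in KO-Refed 2. H2afz, for H2A.Z, was at 2.31 to 4.63 CPM in 7 libraries and at 7.48 in KO-Refed 2, and H2afv, for another H2A.Z protein, was lowest in KO-Refed 1 at 9.81 CPM against 16.2 to 23.6 elsewhere. H2afy, for macroH2A1, stayed between 68.2 and 88.1 CPM in all 8 libraries, with fold changes from -0.11 to 0.20 on the log2 scale, and H2afy2, for macroH2A2, was at 0.889 to 1.69 CPM. Of the clustered H2A genes, Hist1h2ac was at 0.0977 to 0.174 CPM in the fasted libraries, 0.296 and 0.42 in WT-Refed and 0.609 and 0.636 in KO-Refed. Its fitted rise in KO was 2.44 ± 0.45 on the log2 scale, on 5 and 7 counts against 36 and 29, and since it passed the count limit in refed libraries alone this is a description. Hist3h2a, the most abundant of them, was at 2.78 to 6.19 CPM and not called. Hist2h2aa1 had 3 to 16 counts per library and was not called in any contrast, and 89.4% of its windows are shared with other genes.

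Among H2B genes, Hist1h2bc made up nearly all of the level and was not called by edgeR. DESeq2 called it higher with refeeding in KO, as did edgeR without a filter on low counts or with the length correction. It was at 105 and 83.7 CPM in WT-Fasted, 64.5 and 63.7 in KO-Fasted, 113 and 116 in WT-Refed and 93.8 and 217 in KO-Refed. The libraries labelled KO-Refed lay on either side of WT-Refed, and the fold change of KO against WT in refed livers was 0.44 ± 0.35 on the log2 scale (adjusted p = 0.389 by edgeR). Refeeding in KO gave 1.28 ± 0.35 (adjusted p = 0.061), or 0.55 without KO-Refed 2 (adjusted p = 0.0338) and 1.76 without KO-Refed 1 (adjusted p = 0.000109). Per kilobase of transcript it was the highest member in WT-Refed, at 99.1 CPM, and next to Hist1h1c in KO-Refed, at 134.5. Its transcript held no stem-loop of the form searched. Hist2h2be lay between 3.61 and 5.23 CPM in all libraries and was not called. Hist1h2be had 6 to 11 counts outside KO-Refed and 22 and 27 in it, by which it had been selected, and its call in KO refeeding was lost without any library other than KO-Refed 1.

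The H4 genes were low and differed most between the libraries labelled KO-Refed. Hist1h4i was at 0.623 and 0.365 CPM in WT-Fasted, 0.743 and 1.03 in KO-Fasted, 1.04 and 0.762 in WT-Refed and 2.08 and 4.94 in KO-Refed. It was higher in KO-Refed than in WT-Refed (log2 1.95 ± 0.49, adjusted p = 0.0464) and than in KO-Fasted (1.97 ± 0.49, adjusted p = 0.0463). Those fold changes were 1.21 and 1.22 without KO-Refed 2 and 1.26 and 1.31 with a correction for transcript length, and each call was lost without any library other than KO-Refed 1. Hist1h4h was at 0.316 to 1.02 CPM in 7 libraries and at 4.91 in KO-Refed 2, and was called in neither contrast by edgeR and in both by DESeq2. Hist1h4k had 11 counts in either KO-Refed library and 1 to 8 in the others.

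Because histone mRNAs are short, the libraries labelled KO-Refed were compared with each other. KO-Refed 2 held more of the short and less of the long transcripts than KO-Refed 1 did (Spearman's rho of their log2 ratio with annotated length -0.590 across 13013 genes, which are not independent replicates), against -0.111 to 0.0365 in the other groups. In length classes divided at 500, 1000, 2000 and 4000 bases the median log2 ratio was 0.55, 1.05, 0.51, -0.06 and -0.60 from the shortest class to the longest. All 10 tested variant genes were higher in KO-Refed 2 than in KO-Refed 1 (median 0.68), as were 12 of 17 clustered genes (median 0.50), beside 6571 of 14379 genes (median -0.08). Hist1h4h differed by 2.25, H2afj by 1.81, H2afz by 1.31, Hist1h4i by 1.24 and Hist1h2bc by 1.21 on the log2 scale. The 5 clustered genes lower in KO-Refed 2 were Hist1h1c (-0.15), Hist1h2bg (-0.33), Hist2h3c1 (-0.38), Hist1h1e (-0.51) and Hist2h2aa1 (-1.74). Hist1h2bg and Hist2h2aa1 have short transcripts, of 618 and 586 bases, and low counts. Relative to the WT-Refed mean, Hist1h1c stood at 1.96 in KO-Refed 1 and 1.81 in KO-Refed 2, whereas H2afj stood at 0.17 and 1.98 and Hist1h2bc at -0.29 and 0.92. With a correction for annotated transcript length fitted over all genes, Hist1h1c was at 1.55 in refed KO against WT (adjusted p = 0.00567 by edgeR). The members then called in refed livers were 4 higher and 1 lower (H1f0, -0.43, adjusted p = 0.0416 by edgeR), beside 1151 higher and 1579 lower of 13013 genes. The share of members called lower was thus not above that of all genes. Ribosomal protein mRNAs, short and polyadenylated, summed to 4045 to 4808 CPM in WT, 6114 to 7273 in the KO-Fasted libraries and KO-Refed 1, and 14916 in KO-Refed 2. Of the 83 tested, 37 were higher in refed KO against WT and 4 with refeeding in KO, and none was called in the other contrasts. RNAs without a poly(A) tail other than histone mRNAs summed to 22.5 to 34.4 CPM in WT, 31.5 and 33.5 in KO-Fasted and 38.9 and 54.1 in KO-Refed, and 2 of 55 tested were higher in each of the same contrasts, among them Snord12 (log2 2.14 in refed KO against WT, adjusted p = 0.0224 by edgeR). Over all genes 7.06% were higher in refed KO against WT and 5.42% with refeeding in KO, so nothing is read from the 2 of 55. The part of library preparation in the histone values was not tested.

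**Figure D4:**
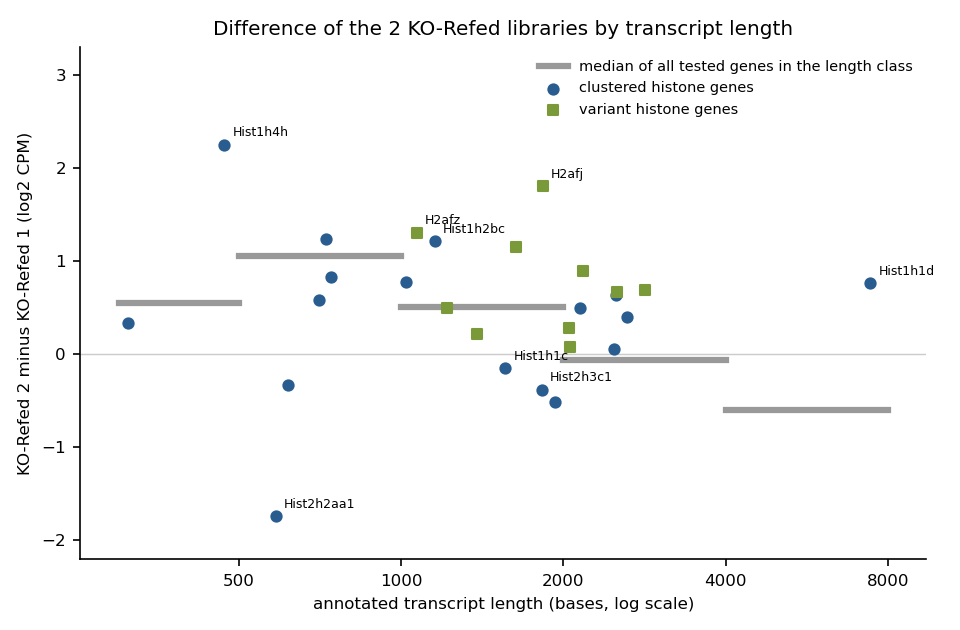
Difference in log2 CPM between KO-Refed 2 and KO-Refed 1 (y axis) against annotated transcript length in bases (x axis, log scale) for the 27 tested histone genes, clustered as circles and variant as squares, with grey bars for the median of all tested genes in each length class. The bars fall from 1.05 in the class above 500 bases to -0.60 in the longest class, all 10 variant genes lie above 0, and Hist1h1c lies at -0.15.

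The genes that serve histone mRNAs and histones were examined as lists, which were chosen with earlier results of these data known. Of 20 genes of histone mRNA processing and transcription tested, none was called between genotypes. With refeeding, 1 was lower in WT (Lsm11, a subunit of the U7 particle that cuts histone mRNA). In KO, 1 was higher with refeeding (Snrpd3, a protein shared by spliceosomal and U7 particles). Over all genes 1.39% were lower with refeeding in WT and 5.42% higher with refeeding in KO. Between genotypes 0.904% of all genes were higher and 0.431% lower in fasted livers, and 7.06% and 4.84% in refed livers. Nothing is read from the counts of this list. The median fold changes of the 20 genes lay between -0.18 and 0.16 on the log2 scale in the 4 contrasts, beside -0.02 to 0.05 over all genes. Slbp was at 8.80 and 8.79 CPM in WT-Fasted, 7.43 and 7.12 in KO-Fasted, 8.65 and 8.83 in WT-Refed and 6.36 and 4.30 in KO-Refed, lower in KO in either state without overlap but not called (refed log2 -0.71 ± 0.23, adjusted p = 0.0797 by edgeR). Npat, the coactivator of clustered histone transcription, was at 8.46 to 12.6 CPM in the WT libraries, 11.2 and 9.26 in KO-Fasted and 6.06 and 3.80 in KO-Refed, and its fold change with refeeding in KO was -1.05 ± 0.27 (adjusted p = 0.0518). Of 27 chaperones and deposition factors tested, 1 was higher (Npm1) and 1 lower (Hjurp, the chaperone of the centromeric H3) in refed KO against WT, and 2 were higher with refeeding in KO, among them Ptma. Of 26 cell cycle genes listed under S phase, 3 were higher (Ccne1, Top2a and Cdk1) and 1 lower in refed KO against WT. With refeeding in KO, 2 were higher and 1 lower. The list is not confined to genes of S phase alone, and the share of cells in that phase was not tested. The counts of this list and of the chaperones stood beside 7.06% of all genes higher and 4.84% lower in refed KO against WT. With refeeding in KO the shares were 5.42% and 5.01%. Ccne1, for cyclin E1, was at 0.598 to 1.37 CPM in 6 libraries and at 6.04 and 5.24 in KO-Refed. The S phase list summed to 101 to 112 CPM in 7 libraries and to 142.5 in KO-Refed 2, and Top2a was at 3.36 and 2.98 CPM in KO-Fasted and 3.01 and 2.35 in KO-Refed against 0.573 to 1.10 in WT. The median fold change of the S phase list between genotypes was 0.42 in fasted and 0.38 in refed livers.

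The 51 clustered genes that were not tested were few in reads in every group. Together they held 33 and 37 counts in WT-Fasted, 31 and 52 in KO-Fasted, 43 and 36 in WT-Refed and 120 and 100 in KO-Refed. In CPM their sum was 0.861 ± 0.0551 in WT-Fasted, 0.775 ± 0.239 in KO-Fasted, 1.004 ± 0.0823 in WT-Refed and 2.11 ± 0.115 in KO-Refed, with both KO-Refed libraries above all others. Of the variant genes not tested, H1fnt and H2afb1 had no count in any library, H1foo had at most 2 and H2afy3 at most 5.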

How the data were processed

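Total liver RNA was extracted with TRIzol and sequenced on an Illumina NextSeq 500, 1 lane per sample. How the RNA was selected (by poly(A) tail or otherwise) and whether the counting used strand are not given in the sources used here. The authors deposited raw read counts per gene, 1 table per sample, with no normalization. The study's methods name ERANGE for the counts and a limma-based test, whereas the submitters' processing notes name cutadapt, STAR, HTSeq, DESeq2 and the build mm10 without versions. Which of these gave the counts is not resolved here.

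Genes with at least 10 counts in at least 2 samples were tested (14379 of 23337), and the genes left out held 0.0126% of the counts. The edgeR (4.0.16, R 4.3.3) quasi-likelihood test was fitted with TMM factors to all 8 samples with 1 term per group, and p-values were adjusted by Benjamini-Hochberg over all genes tested, with a gene called at an adjusted p under 0.05. An SE was taken as the absolute log2 fold change over the root of the F statistic. Alternatives were RLE normalization, DESeq2 (1.42.0), limma (3.58.1), other filters, a replicate block, a loess correction for transcript length, the 4 samples of a contrast alone, and leaving out each library. The test was checked on simulated counts drawn with the same spread for all genes and groups (common dispersion 0.0573). The wider difference between the KO-Refed libraries was not simulated, so the check does not cover it. CPM of single genes carry counting error as well as the spread between samples, and PCR duplicates could not be told apart, so counting intervals and floors cover counting error only. Transcripts and positions came from GENCODE M21 (GRCm38) and promoters from RefSeq (GRCm38.p6). A window of a transcript was called shared where its 50 bases occurred in another gene.

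Histone genes and gene lists were chosen with earlier results of these data known. The genes named were all tested variant genes, the 3 clustered genes of highest mean CPM for each histone type, in each contrast up to 6 called clustered genes of largest fold change, and from the other lists Slbp, Npat and up to 3 called genes each. Other members were named, after their values were seen, where they made up a count of 5 or fewer or lay at the count limit. Plots and sequence searches used Python (3.11.15), with matplotlib at 3.10.9.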

Additional observations from a re-analysis of the deposited data

Results flagged for a closer look

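For 6 histone genes, both libraries of a group moved one way in one setting and the opposite way in the other. The difference was tested as the edgeR interaction of genotype and feeding, which passed the adjusted threshold for none of them. H1fx, Hist1h1a and Hist1h2be had passed the count limit with KO-Refed as the only complete group. Their higher values there were built into the selection, so their turn supports nothing. The share of all genes that turned in this way was not counted. For Hist1h1c, the direction of refeeding differed between WT and KO and the direction of genotype between fasted and refed livers, with an interaction of 2.45 on the log2 scale (adjusted p = 0.115 by edgeR). For H1fx, refeeding differed between the genotypes with an interaction of 3.70 (adjusted p = 0.570 by edgeR), on 0 to 20 counts per library. The genotype difference turned between fasted and refed livers for Hist2h3c2 with an interaction of 2.13 (adjusted p = 0.551), for H2afx with 1.12 (0.562) and for Hist1h2be with 1.65 (0.599), all by edgeR. For Hist1h1a the fitted interaction was 7.46 (adjusted p = 0.557 by edgeR), a value that depends on the prior count since KO-Fasted held 0 counts.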

How the results depend on the processing

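The alternatives left the direction of every called histone gene as it was, while the number of calls moved. Between KO and WT in fasted livers the count of members called, 0, became 2 with DESeq2, beside 625 higher and 462 lower of all 14379 genes. It became 1 with the length correction (378 and 585 of 13013 genes) and 1 with length correction and replicate block (322 and 493). In the 4 samples alone it was 3, beside 1139 and 894 of 14379 genes. With 1 library left out the counts moved over all genes too and are not read. Hist1h1c was then at -0.59 with DESeq2 (adjusted p = 0.0286), -0.54 in the 4 samples (edgeR adjusted p = 0.0239) and -0.58 to -0.53 with 1 library left out. In refed livers the count of 4 became 7 with DESeq2 (1705 and 1506 of all genes) and 2 with the replicate block (783 and 601). In the 4 samples it was 0, as over all genes. Hist1h1c was at 1.88 in the 4 samples (edgeR adjusted p = 0.0856) and at 1.73 to 2.05 with 1 library left out. With refeeding the WT count of 3 ranged from 0 to 5 and Hist1h1c from -1.63 to -1.30, and the KO count of 10 was 0 in the 4 samples and ranged from 0 to 19, with Hist1h1c at 1.01 in the 4 samples (edgeR adjusted p = 0.141) and at 0.93 to 1.07. For the interaction the count of 0 was 2 with DESeq2 (57 and 47 of all genes) and 1 without a filter (2 and 0 of 18084 genes). Hist1h1c was there at 2.46 (DESeq2 adjusted p = 5.02e-16) and 2.44 (edgeR adjusted p = 0.0419), and at 2.30 to 2.63 with 1 library left out.

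Same-numbered samples did not deviate together in every pair (r from 0.018 to 0.175), so the block shares only a number, and with it 6 of 14 other calls of named genes were lost. The length correction lost none, DESeq2 none of the 11 it could test, and leaving out KO-Fasted 1 or KO-Fasted 2 all 14. The length correction used the longest annotated transcript, 7425 bases for Hist1h1d, whose RefSeq start lies inside that gene. The kept calls of Hist1h1d are thus no check on length. Over all genes DESeq2 called 625 higher and 462 lower in fasted and 1705 and 1506 in refed livers, against 130 and 62, and 1015 and 696, by edgeR. Sums of CPM over a library size without the 50 highest genes and without TMM were 468, 379, 336 and 795 for clustered and 649, 686, 609 and 777 for variant genes in WT-Fasted, KO-Fasted, WT-Refed and KO-Refed. With RLE factors KO-Fasted had 233 and 422. The cause of these changes was not tested. Genes under about 10 counts could not show small differences at this depth.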
